A study of Sus scrofa with 4 samples.

Results

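Potassium channel genes were followed in RNA sequencing of porcine ovarian granulosa cells, the somatic cells that surround the oocyte in the follicle. Members were the rows of the deposited count table whose symbol begins with KCN and another letter, ends in a digit, and had 40 or more counts summed over the libraries. The rule took 35 genes out of 93 such symbols and 29884 rows. The cells came from antral follicles and were not treated, as far as the labels say. Part of the cells of each follicle served for flow cytometry, and the rest were assigned to groups by how many cells were in G0/G1, the stage that precedes DNA replication. The high G0/G1 group and the low G0/G1 group held 2 libraries each, called replicate 1 and replicate 2 here in the order of listing. Age, breed and oestrous stage of the animals were not given in the sources used here. Whether the 2 libraries of a group stem from different animals is not stated, and the spread behind each p-value may therefore be technical.

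Potassium channels let potassium leave or enter the cell and so set the resting membrane potential and end electrical signals. A channel is built from pore-forming subunits, and many bind auxiliary subunits that alter gating, inactivation or transport to the membrane. Voltage-gated pores open on depolarisation, calcium- and sodium-activated pores follow ions inside the cell, inward rectifiers and tandem pore domain channels carry current near rest. Outward potassium currents have been recorded in porcine granulosa cells, and potassium channels are known to take part in volume control, steroid output and cell cycle progress in several cell types.

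The libraries held 27442850 to 32674921 counts. Levels are in CPM, read counts scaled to library size, with library sizes adjusted by the TMM method, which balances libraries on the bulk of genes. The upper limit behind a count of 0 was 0.0941 to 0.105 CPM by library (3 counts, counting error only). CPM does not correct for transcript length, which was not used here, so levels are compared between libraries and not between genes. All 12 granulosa markers checked, among them FSHR, FOXL2 and INHA, had counts in every library. A list of 20 genes of cycling cells lay on average at -0.26 and -2.10 around its 4-library mean (log2 CPM with 0.5 added) in high replicates 1 and 2 and at 1.27 and 1.09 in low replicates 1 and 2, which put high replicate 1 in an intermediate place. The groups were formed on cell cycle phase, which these genes follow. Low replicate 2 stood apart in markers of other cells. Its 13 markers of stroma and smooth muscle summed to 1642 CPM against 65.6 to 180 CPM in the other libraries. COL1A1, COL1A2 and COL3A1 gave 390, 454 and 478 CPM of this sum, while MYH11, PDGFRA and RGS5 were highest in high replicate 2. CYP17A1, the theca enzyme of androgen synthesis, stood at 51.5 CPM in low replicate 2 against 0.126 to 1.02. In bulk RNA, fewer cells of a type and less RNA per cell cannot be told apart.

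Of the 93 symbols, 19 had no count in any library, 39 had 1 to 39 counts in all, and 35 were members. Of the members named here KCNN3, with 44 counts, was the nearest inside the threshold, and KCND3, with 36 counts, was the symbol just outside. The filter on low counts passed 34 members, and it also passed KCND3. Of the 35 members 20 had a mean of 1 CPM or more. All 35 together held 31091 and 22382 counts in the high libraries, replicate 1 first, and 28285 and 20053 in the low ones. KCNQ1 alone took 69.1% (95% Wilson interval 68.6 to 69.6) and 74.1% (73.5 to 74.7) of these counts in high, and 68.0% (67.5 to 68.6) and 63.7% (63.0 to 64.3) in low. These are shares of reads, not of molecules, and their intervals cover counting error only.

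**Figure D1:**
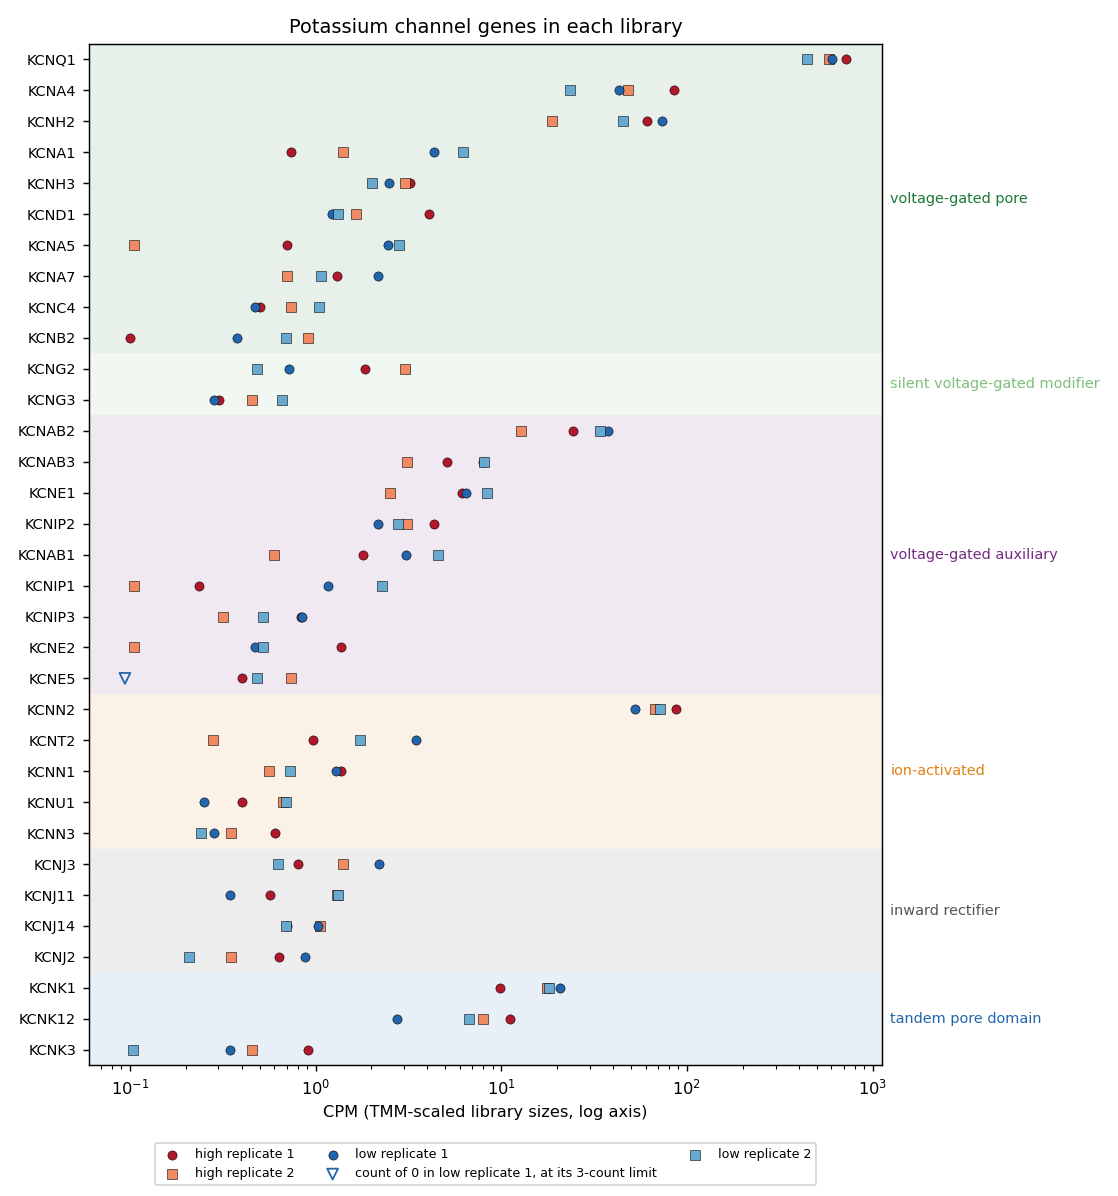
CPM of 33 potassium channel genes in each of the 4 libraries, on a log axis, grouped by role. Each point is 1 library and the open triangle marks a count of 0 drawn at its 3-count limit. KCNQ1 runs from 443 to 720 CPM, while KCNA1 and KCNA5 lie lower in both high G0/G1 libraries than in both low ones.

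High G0/G1 cells were compared with low G0/G1 cells to ask which channel genes differ with the share of G0/G1 cells. Some subunits of the shaker class of voltage-gated channels did not overlap between the groups, and these lay in both directions. Of all genes tested 56.6% did not overlap, 26.8% higher and 29.8% lower. KCNA1 and KCNA5 were lower in both high libraries, at 1.07 ± 0.47 against 5.27 ± 1.33 CPM (SD, n = 2) and at 0.405 ± 0.424 against 2.63 ± 0.256 CPM. KCNA4, of the same class, was higher at 66.6 ± 26.2 against 33.3 ± 14.1 CPM, and the genes of all 3 cytosolic beta subunits that bind this class, KCNAB1, KCNAB2 and KCNAB3, were lower. KCNG2, a silent modifier of voltage-gated channels, was 4.03-fold higher. None of these differences passed the threshold after adjustment in the main test.

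By edgeR's quasi-likelihood test 0 of 34 tested members had an adjusted p under 0.05, higher or lower, and over all 14352 genes tested the share was 0% as well. At an unadjusted p under 0.05, KCNG2 was higher, 1 of 34 members against 9.92% of all genes, and KCNA1, KCNA5, KCNAB2 and KCNIP1 were lower, 4 of 34 against 10.8%. DESeq2 called 0 members higher (5.34% of all genes) and 2 lower (5.05%), KCNA1 and KCNIP1, and gave no adjusted p for 10 members with few counts. The same 2 were called lower by edgeR's likelihood ratio test, which called 0 higher, against 3.72% of all genes lower and 3.88% higher. limma-voom called 0 members and 0% of genes in either direction. An exact permutation test of 2 against 2 libraries cannot give a two-sided p under 0.333, so none was run on single values.

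The groups did not overlap in 17 of 34 tested members, with the high libraries above in 8 and below in 9. Over all genes tested these shares were 26.8% higher and 29.8% lower, so the members' 23.5% and 26.5% were near the background. The median log2 fold change, high minus low, was -0.11 over the 34 members and -0.01 over all genes tested. The median size of the change without its sign was 0.64 in the members and 0.47 over all genes. A log2 fold change above 1 was seen in 5 members (14.7%) against 11.3% of all genes, and below -1 in 6 (17.6%) against 11%. A mean of 1 CPM or more was reached by 20 of the 35 members and by 12745 genes of the whole table, with 14352 tested. Members were not compared with genes of like level, so these sizes do not show larger changes in channel genes. With 1 library left out in turn, 11 members stayed higher in every case, 11 stayed lower, and 12 were higher in some cases and lower in others. High replicate 2 was the lowest library in 13 of the 34 members and in 34.2% of all genes tested.

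**Figure D2:**
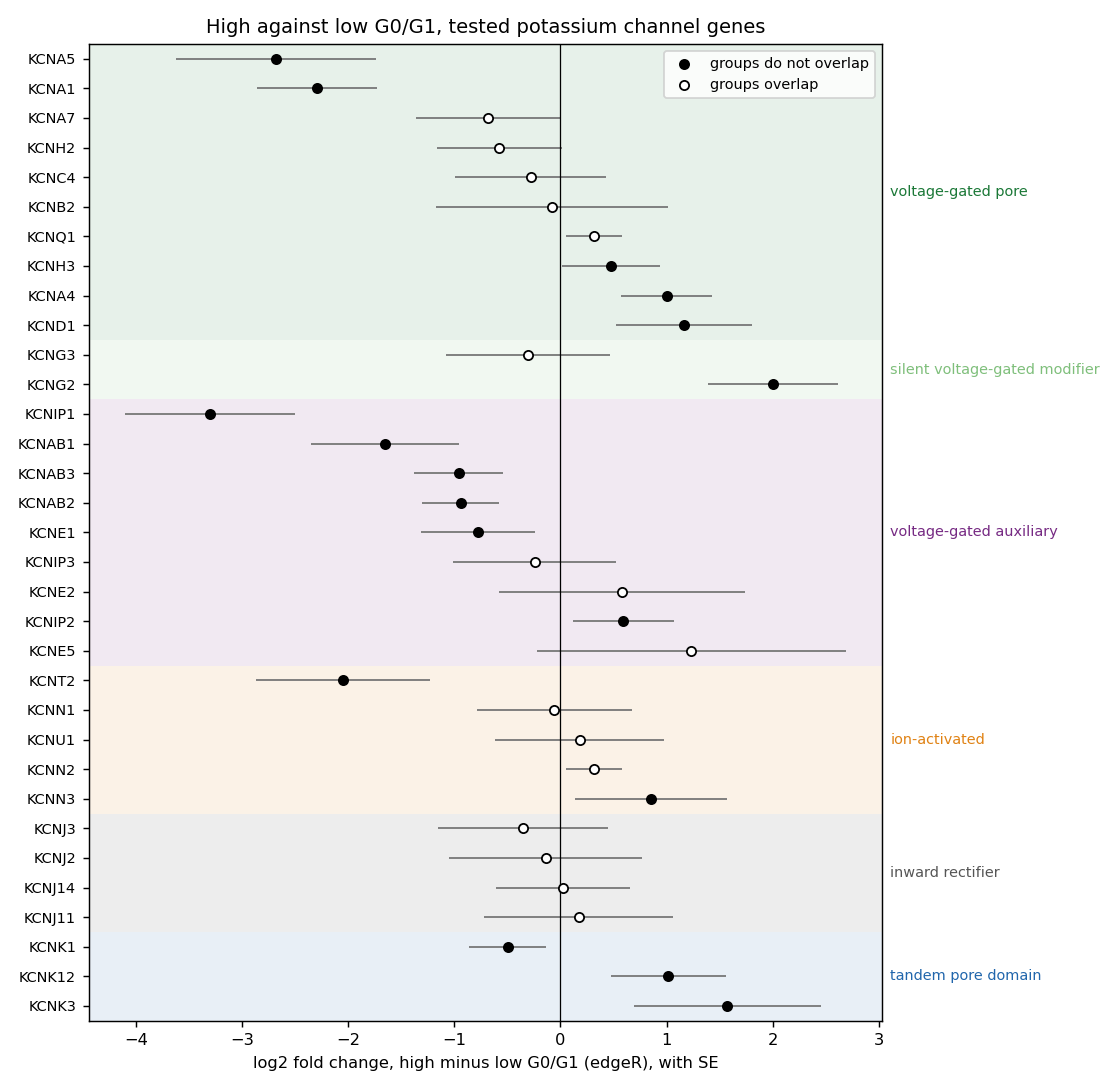
Log2 fold change, high minus low G0/G1, of 33 tested potassium channel genes with its standard error, by role. Filled points are genes whose groups do not overlap, and 5 of the 9 auxiliary subunit genes are filled on the lower side (29.8% of all genes tested), from KCNIP1 at -3.31 to KCNE1 at -0.78.

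Among the pores of voltage-gated channels, KCNQ1 and its cardiac companion KCNH2 were not set apart by group. KCNQ1 (chromosome 2, 1675323 to 1989110 in Sscrofa11.1) encodes the pore of the slow delayed rectifier of the heart and of potassium recycling in epithelia. It had 720 and 582 CPM in high replicates 1 and 2 and 603 and 443 CPM in low replicates 1 and 2. High replicate 2 fell below low replicate 1, so the groups overlapped. The log2 fold change was 0.32 ± 0.27 (SE, edgeR adjusted p = 0.529), and without 1 library it ran from 0.12 to 0.62. KCNH2 (chromosome 18, 6242826 to 6279154), the pore of the rapid delayed rectifier, had 60.9 and 18.8 CPM in high and 73.4 and 45.4 CPM in low. Only high replicate 2 lay below both low libraries. The KCNH2 log2 fold change of -0.58 ± 0.59 (SE, edgeR adjusted p = 0.606) turned to 0.04 when high replicate 2 was left out and to -1.67 when high replicate 1 was.

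KCNA4 (chromosome 2, 30605503 to 30615997), which gives a fast-inactivating A-type current, had 85.2 and 48.1 CPM in high replicates 1 and 2 and 43.3 and 23.3 CPM in low replicates 1 and 2. The groups did not overlap, but high replicate 2 lay close to low replicate 1. The log2 fold change was 1.0 ± 0.42 (SE, edgeR adjusted p = 0.264). It was 0.52 without high replicate 1, 0.63 without low replicate 2, 1.35 without high replicate 2 and 1.57 without low replicate 1. DESeq2 called KCNA4 higher without high replicate 2, 1 member against 2.6% of all genes.

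KCNA1 (chromosome 5, 65556837 to 65565880), a slowly inactivating shaker-class pore, had 0.738 and 1.40 CPM in high and 4.33 and 6.21 CPM in low, from 22, 40, 138 and 179 counts. The groups stood clear of each other, with the lowest low library above the highest high one by more than the distance between the high libraries. Its log2 fold change was -2.29 ± 0.56 (SE, edgeR adjusted p = 0.169), with a DESeq2 adjusted p of 0.00796, and without 1 library it ran from -2.83 to -1.91. KCNA5 (chromosome 5, 65439336 to 65442207), the pore of the ultrarapid delayed rectifier of the atrium, had 0.704 and 0.105 CPM in high and 2.45 and 2.81 CPM in low, from 21, 3, 78 and 81 counts. The low libraries were close together and the high ones were not. For KCNA5 the log2 fold change was -2.68 ± 0.94 (SE, edgeR adjusted p = 0.214), -1.89 without high replicate 2 and -4.59 without high replicate 1.

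KCNA1 and KCNA5 lie next to each other, with 115 kb between them. KCNA6, also of this class and cluster, lies 59.7 kb beyond KCNA1 and had 0 counts in each library. Between KCNA5 and KCNA1 the annotation places the long non-coding RNA LOC100524923 (chromosome 5, 65457800 to 65472176), named after its values were seen. It had 11 and 14 counts in high replicates 1 and 2 and 33 and 127 in low replicates 1 and 2. The log2 fold change was -2.65 ± 0.88 (SE, edgeR adjusted p = 0.205), and -1.24 without low replicate 2, the library with the highest count of this RNA. Besides the members, 10 genes within 500 kb of the cluster were tested, this RNA among them. In 8 of them both high libraries lay below both low ones, against 29.8% of all genes tested, in 1 both lay above, and in 1 the groups overlapped. The DNA repair gene RAD51AP1 at -2.30 ± 0.70 and the cyclin gene CCND2 at -0.95 ± 0.53 were among the 8, with NDUFA9, DYRK4, C5H12orf4, TIGAR and LOC106507534, while the sperm anchoring protein gene AKAP3 stood at 0.31 ± 0.38. The spans of AKAP3 and DYRK4, DYRK4 and RAD51AP1, RAD51AP1 and C5H12orf4, and CCND2 and LOC106507534 overlap. LOC102166265, the pseudogene whose groups overlapped, lies inside the span of C5H12orf4. Reads in the shared stretches cannot be told apart without strand. These neighbours were looked up after the values of KCNA1 and KCNA5 were known, and all missed the threshold.

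**Figure D3:**
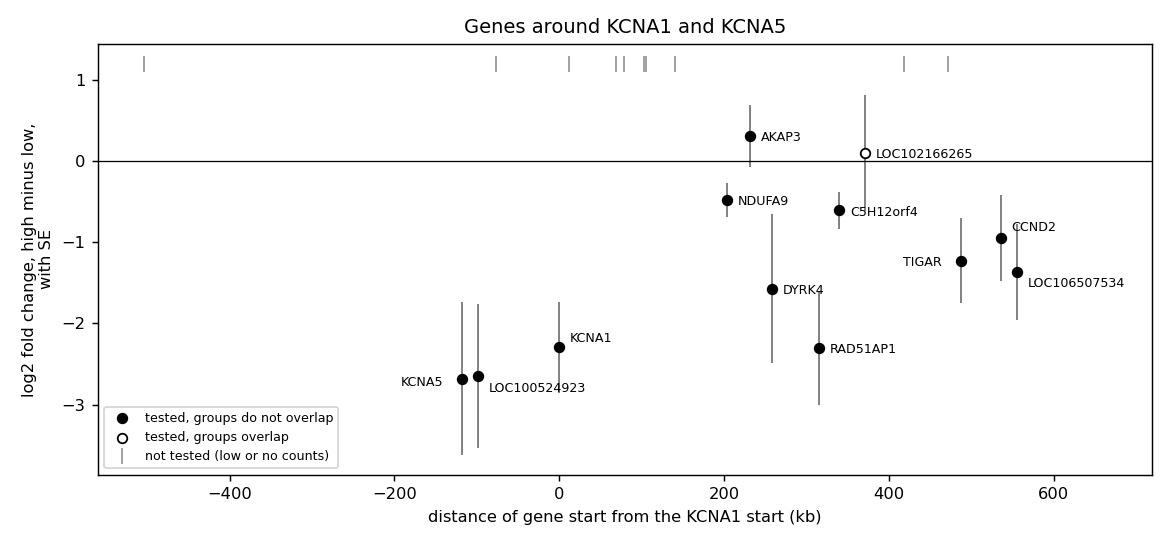
Log2 fold change, high minus low G0/G1, with its standard error, of the tested genes around KCNA1, against the distance of their start from that of KCNA1 in kb. Grey marks are genes with too few counts for a test. KCNA5, LOC100524923 and KCNA1 lie at -2.68, -2.65 and -2.29.

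KCND1 (chromosome X, 43032355 to 43043310), an A-type pore active below the firing threshold, had 4.06 and 1.65 CPM in high and 1.22 and 1.32 CPM in low. High replicate 1 lay far above the rest, and high replicate 2 only just above the low libraries. The difference on the log2 scale was 1.17 ± 0.64 (SE, edgeR adjusted p = 0.349), and 0.37 without high replicate 1. KCNH3, of the ether-a-go-go family, had 3.22 and 3.02 CPM in high and 2.48 and 2.01 CPM in low, a log2 fold change of 0.47 ± 0.46 (SE, edgeR adjusted p = 0.588) that ran from 0.34 to 0.70 without 1 library. KCNA7, KCNB2 and KCNC4, further pores of voltage-gated channels, lay between 0.101 and 2.16 CPM with overlapping groups.

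Silent modifiers form no working channel alone and change the gating of other pores when they join them. KCNG2 (chromosome 6, 127830032 to 127891294) had 1.84 and 3.02 CPM in high and 0.722 and 0.486 CPM in low, from 55, 86, 23 and 14 counts. Every high library was well above every low one. The log2 fold change was 2.00 ± 0.61 (SE, edgeR adjusted p = 0.194, DESeq2 adjusted p = 0.0720), and without 1 library it ran from 1.60 to 2.38. KCNG3 overlapped, with 0.282 to 0.659 CPM. KCNB2, a delayed rectifier pore that such subunits join, had 3, 26, 12 and 20 counts in high replicates 1 and 2 and low replicates 1 and 2.

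Auxiliary subunits of voltage-gated channels held the most members whose groups did not overlap on the lower side. Of 9 tested, 6 had a log2 fold change below 0 and 5 had both high libraries below both low ones, with a median of -0.78. Over all genes tested 50.6% had a log2 fold change below 0 and 29.8% had both high libraries below both low ones, and no test of the class was run. KCNAB2 (chromosome 6, 66928374 to 67016846), a cytosolic beta subunit related to aldo-keto reductases, had 24.4 and 12.8 CPM in high and 37.7 and 33.9 CPM in low. The low libraries were close together, and high replicate 1 lay between them and high replicate 2. Its log2 fold change was -0.94 ± 0.36 (SE, edgeR adjusted p = 0.235). Without high replicate 1 it was -1.49 with an edgeR adjusted p of 0.0436, the 1 member called lower there against 3.92% of all genes, and without high replicate 2 it was -0.55 and no member was called lower (0% of all genes).

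KCNAB1 (chromosome 13, 95981820 to 96375089), the beta subunit that adds fast inactivation, had 1.81 and 0.597 CPM in high and 3.07 and 4.54 CPM in low, a log2 fold change of -1.66 ± 0.70 (SE, edgeR adjusted p = 0.262) that ran from -2.67 to -1.07 without 1 library. KCNAB3 (chromosome 12, 53171315 to 53178924) had 5.13 and 3.09 CPM in high and 7.97 and 8.05 CPM in low, a log2 fold change of -0.96 ± 0.42 (SE, edgeR adjusted p = 0.271), with -1.38 to -0.64 when 1 library was left out. In all 3 beta subunit genes high replicate 2 was lowest and high replicate 1 next, as in the mean of the cycling cell genes. The low libraries kept the order of that mean in KCNAB2 but not in KCNAB1 or KCNAB3. The part of the cycling cells in the order of the libraries was not tested. KCNAB1 overlaps SSR3, which had 3459 to 6184 counts per library and a log2 fold change of 0.47, and reads in the shared stretch cannot be told apart without strand. The same holds for KCNAB3 and the long non-coding RNA LOC100525078, which had 188 and 177 counts in high and 124 and 172 in low. Further members overlap other annotated genes, among them KCNA7 with NTF4, KCNN3 with PMVK, KCNK3 with LOC102168019 and KCNQ1 with LOC110259223.

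KCNE1 (chromosome 13, 198051281 to 198059444), the single-pass subunit that slows KCNQ1, had 6.14 and 2.53 CPM in high and 6.49 and 8.36 CPM in low. High replicate 1 lay just under low replicate 1. Its log2 fold change was -0.78 ± 0.54 (SE, edgeR adjusted p = 0.448), -0.27 without high replicate 2 and -1.56 without high replicate 1. KCNE2, 70.3 kb away on the same chromosome, had 41, 3, 15 and 15 counts in the same order of libraries, with high replicate 1 above and high replicate 2 below both low libraries. KCNE5 had 12, 21, 0 and 14 counts.

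KCNIP subunits bind calcium and carry KCND pores to the membrane. KCNIP1 (chromosome 16, 53272652 to 53694974), named after its values were seen since its mean level was under 1 CPM, had 7 and 3 counts in high and 37 and 66 in low, or 0.235 and 0.105 against 1.16 and 2.29 CPM. The groups were far apart on few reads. The log2 fold change was -3.31 ± 0.80 (SE, edgeR adjusted p = 0.169, DESeq2 adjusted p = 0.0235), and it ran from -3.99 to -2.73 without 1 library. KCNIP2 (chromosome 14, 112857058 to 112876469) had 4.36 and 3.09 CPM in high and 2.16 and 2.77 CPM in low, a log2 fold change of 0.59 ± 0.47 (SE, edgeR adjusted p = 0.507), with 0.32 to 0.82 when 1 library was left out. KCNIP3 overlapped at 0.316 to 0.847 CPM. Another partner of KCND pores outside the symbol rule, the dipeptidyl peptidase-like gene DPP10, had 15.9 and 15.2 CPM in high and 2.63 and 2.81 CPM in low, a log2 fold change of 2.51 ± 0.33 (SE, edgeR adjusted p = 0.125, DESeq2 adjusted p = 3.9e-09). Its relative DPP6 overlapped, with 273 and 342 counts in high and 127 and 638 in low.

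Ratios of counts within a library do not depend on scaling, and pairs were chosen after the values were seen. For 100 counts of KCNA4 there were 28.7 and 26.7 counts of KCNAB2 in high replicates 1 and 2 and 87.2 and 145 in low replicates 1 and 2. KCNA1 counts per 100 of KCNA4 were 0.867 and 2.92 in high and 10 and 26.6 in low. KCNE1 counts per 100 of KCNQ1 were 0.852 and 0.434 in high and 1.08 and 1.89 in low. Each of these ratios was lower in both high libraries, though for KCNE1 high replicate 1 was close to low replicate 1. KCNAB2 and KCNA1 were already lower without overlap and KCNA4 higher. Their ratios to KCNA4 therefore had to separate the groups and add nothing to the levels. Of 9 pairs computed 4 had the lower ratio in both high libraries, the last being KCNH2 to KCNQ1. KCNA4 counts per 100 of KCNQ1 went the other way, at 11.8 and 8.25 in high and 7.17 and 5.27 in low. The groups overlapped in the other 4, which were KCNIP2 to KCND1, KCNN2 to KCNQ1, and KCNE2 to KCNQ1 and to KCNH2. Lengths differ between genes, so a ratio is read across libraries and says nothing of subunits per channel.

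**Figure D4:**
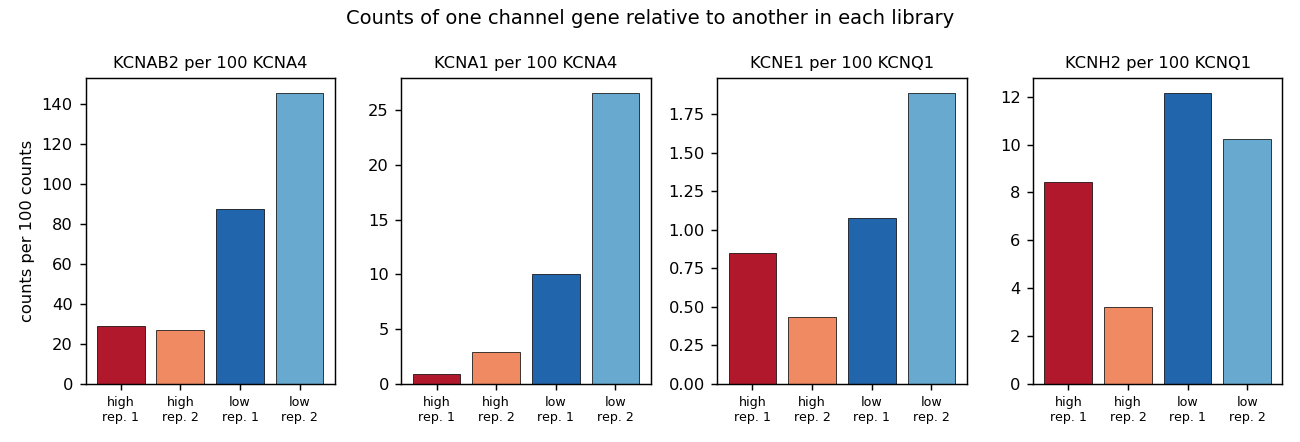
Counts of KCNAB2 and KCNA1 per 100 counts of KCNA4, and of KCNE1 and KCNH2 per 100 counts of KCNQ1, in each library (bars, 1 library each, axes from 0). KCNAB2 per 100 KCNA4 stayed at or under 28.7 for high and reached 87.2 and 145 for low. This separation follows from KCNAB2 being lower and KCNA4 higher without overlap, as it does for KCNA1 per 100 KCNA4.

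Of the pores opened by ions inside the cell, KCNN2 had the most reads. KCNN2 (chromosome 2, 118439328 to 118882299), a small-conductance channel opened by calcium through calmodulin, had 87.1 and 67.5 CPM in high and 52.3 and 71.8 CPM in low. The groups overlapped, and the log2 fold change was 0.32 ± 0.26 (SE, edgeR adjusted p = 0.521), or 0.12 to 0.58 without 1 library. KCNT2, a sodium-activated channel, had 0.973 and 0.281 CPM in high and 3.48 and 1.73 CPM in low, from 29, 8, 111 and 50 counts. Its log2 fold change of -2.05 ± 0.82 (SE, edgeR adjusted p = 0.246) became -1.40 when low replicate 1 was left out and -3.21 when high replicate 1 was. KCNN3, a relative of KCNN2 with 44 counts in all, had 18 and 10 counts in high and 9 and 7 in low, a log2 fold change of 0.85 ± 0.72 (SE, edgeR adjusted p = 0.528), or 0.40 to 1.19 without 1 library. KCNN1 and KCNU1, the sperm-type pore of the large-conductance family, overlapped, with 0.251 to 1.38 CPM. The large-conductance pore KCNMA1 and the intermediate-conductance pore KCNN4 were under the count threshold, with 12 and 2 counts in all.

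Inward rectifiers had few reads and none separated the groups. KCNJ11, the pore of the ATP-sensitive channel, had 0.570 and 1.30 CPM in high and 0.345 and 1.32 CPM in low. Each group held a high and a low value, and the log2 fold change was 0.17 ± 0.89 (SE, edgeR adjusted p = 0.932). Its sulfonylurea receptor partner ABCC8 had 4, 1, 6 and 12 counts in high replicates 1 and 2 and low replicates 1 and 2. KCNJ2, a strong rectifier that holds the resting potential, KCNJ3, a G-protein-gated pore, and KCNJ14 lay between 0.208 and 2.20 CPM.

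The tandem pore domain channels, which carry background current, had 3 members and went both ways. KCNK12 (chromosome 3, 92990129 to 93044989), of the halothane-inhibited type, had 11.2 and 7.97 CPM in high and 2.73 and 6.73 CPM in low. High replicate 2 and low replicate 2 were close, and low replicate 1 was well below. Its difference on the log2 scale was 1.02 ± 0.54 (SE, edgeR adjusted p = 0.338), 0.57 without low replicate 1 and 1.82 without low replicate 2. KCNK1 (chromosome 14, 57268064 to 57319338), a weak rectifier, had 9.83 and 17.7 CPM in high and 20.7 and 18.1 CPM in low. High replicate 2 lay just under low replicate 2. High replicate 1 was the low library here, and the log2 fold change of -0.50 ± 0.36 (SE, edgeR adjusted p = 0.469) was -0.14 without it. KCNK3, an acid-sensitive channel, had 27 and 13 counts in high and 11 and 3 in low, a log2 fold change of 1.57 ± 0.88 (SE, edgeR adjusted p = 0.355), 0.98 without low replicate 2 and 2.72 without low replicate 1.

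Symbols under the count threshold had more reads in low replicate 2 than in any other library. The same share over all rows with as few counts was not computed, so this may not be particular to channel symbols. The 39 symbols with 1 to 39 counts had 67 and 107 counts together in high replicates 1 and 2, 81 in low replicate 1 and 196 in low replicate 2. Of the 24 with 5 or more counts, 10 had over 50% of them in low replicate 2, among them KCNE3 (0, 1, 2 and 31 counts in high replicates 1 and 2 and low replicates 1 and 2), KCNE4 (1, 0, 1 and 14), KCNJ8 (0, 3, 0 and 19), KCNMA1 (0, 1, 1 and 10) and KCNMB1 (0, 0, 0 and 8). Low replicate 2 was the highest library in 12 of the 24. High replicate 1, high replicate 2 and low replicate 1 each held over 50% of the counts of 2 symbols, among them KCNMB3 (12, 0, 0 and 7) and KCNMB4 (6, 24, 2 and 3). KCNJ8, KCNMA1 and KCNMB1 are known from vascular smooth muscle and pericytes, where KCNJ8 pairs with ABCC9, which had 5, 1, 6 and 26 counts. In the same library ACTA2, the smooth muscle actin gene, stood at 147 CPM against 18.7 to 24.2 in the others. The collagen gene COL1A2 stood at 454 CPM there against 9.79 to 25.3. The stroma and smooth muscle markers MYH11, PDGFRA and RGS5 were instead highest in high replicate 2. They had 5.37, 18.6 and 17.2 CPM there against 3.68, 6.17 and 10.99 CPM in low replicate 2. Of the 13 stroma and smooth muscle markers 0 were without a count. The theca list summed to 1065 and 366 CPM in high and 245 and 474 in low, led by LHCGR in high replicate 1, which mature granulosa cells also express. The part of such cells in these counts was not tested. KCNMB1 lies inside the span of KCNIP1, and KCNIP1 had 37 counts in low replicate 1 where KCNMB1 had 0. Without low replicate 2 the median log2 fold change of the tested members was 0.12, against -0.11 with all libraries. Without low replicate 1 it was 0.17, so the shift was not particular to low replicate 2.

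**Figure D5:**
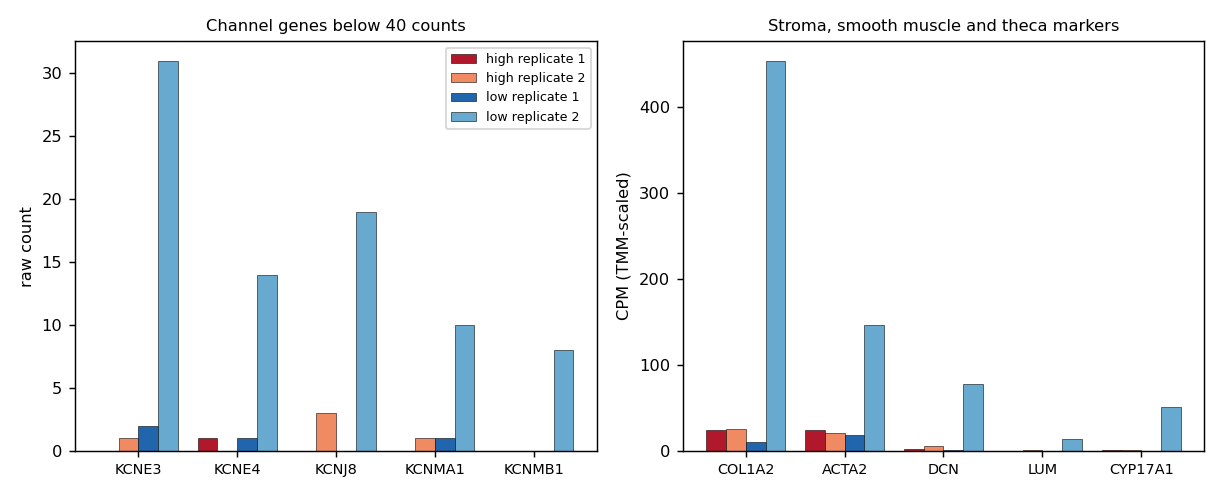
Left, raw counts of 5 channel genes under the threshold of 40 counts in each library. Right, CPM of selected markers of stroma, smooth muscle and theca in the same libraries. Low replicate 2 is the highest bar for each gene drawn, with 31 counts of KCNE3 and 454 CPM of COL1A2. MYH11, PDGFRA and RGS5, which were highest in high replicate 2, are not drawn.

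Genes that handle potassium or depolarise the cell but carry other symbols were taken from 2 lists. Of 47 partners, pumps, cotransporters and their kinases 31 were tested. On the log2 scale 12 were above 0 and 19 below 0, high minus low, with a median of -0.15. The groups did not overlap in 16 of them, with the high libraries above in 5 and below in 11, against 26.8% and 29.8% of all genes tested. By edgeR 0 passed the adjusted threshold. Without adjustment 2 higher and 1 lower had p under 0.05 (9.92% and 10.8% of all genes), and DESeq2 called 2 higher and 1 lower (5.34% and 5.05%). ATP1B1, a beta subunit of the sodium-potassium pump, had 99.8 and 291 CPM in high and 15.6 and 23.0 CPM in low, a log2 fold change of 3.34 ± 0.58 (SE, edgeR adjusted p = 0.144), while the pump regulator FXYD6 had 22.0 and 17.9 CPM in high and 41.0 and 50.4 in low. OXSR1, a kinase that controls cation-chloride cotransport, had 66.4 and 54.7 CPM in high and 86.1 and 87.4 in low. With high replicate 1 left out, ATP1B1 had an edgeR adjusted p of 0.0168 and DPP10 one of 0.0402.

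Of 31 voltage-gated calcium and sodium channel genes 19 were tested, with 10 higher and 9 lower and a median log2 fold change of 0.01. By edgeR 0 passed the adjusted threshold, while without adjustment 0 higher and 3 lower had p under 0.05 (9.92% and 10.8% of all genes). DESeq2 called 0 higher (5.34% of all genes) and 2 lower (5.05%), the calcium channel pores CACNA1E and CACNA1H. CACNA1H, a low-voltage-activated T-type pore, had 145 and 104 CPM in high and 263 and 229 CPM in low, a log2 fold change of -0.98 ± 0.26 (SE, edgeR adjusted p = 0.174). CACNA1E, an R-type pore, had 43.4 and 37.3 CPM in high and 89.2 and 81.2 CPM in low, a log2 fold change of -1.08 ± 0.21 (SE, edgeR adjusted p = 0.151). The groups of both stood clear of each other. CACNA2D3, an accessory calcium channel subunit, had 4.36 and 1.44 CPM in high and 9.35 and 7.21 in low, and SCN4B, a sodium channel beta subunit, 9.73 and 1.44 in high and 0.502 and 1.67 in low.

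The number of members DESeq2 called depended on which libraries entered. Without high replicate 1 it called KCNA5, KCNAB1, KCNAB2 and KCNH2 lower, 4 of 35 members against 8.36% of all genes, and 0 higher (6.51%). Without high replicate 2 it called KCNA1 lower, 1 of 34 against 3.13%. Without low replicate 1 it called 0 members lower (0.76% of all genes) and 0 higher (2.08%), and without low replicate 2 it called 0 lower (0.94%) and 0 higher (1.35%). Where 1 library is left in a group, that library is assumed to vary as the other group does.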

How the data were processed

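Values are raw read counts by gene symbol for 4 libraries, as deposited in a single table. HISAT2 and Sscrofa11.1 are the aligner and assembly in the submitters' processing notes. Read counter, annotation release and strand setting: not given in the sources used here. Total RNA was taken with Trizol, per the labels' protocols. The values of 2 members are not reported here. All 35 members matched a RefSeq symbol of Sscrofa11.1, which gave coordinates; KCNT2 is on no placed chromosome there.

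The 4 libraries were fitted together, high against low, using edgeR 4.0.16 (R 4.3.3) with filterByExpr (minimum count 10, minimum total 15), TMM scaling, glmQLFit and glmQLFTest, no covariate, Benjamini-Hochberg adjustment over 14352 genes, calls at an adjusted p under 0.05. Differences are given as high minus low on the log2 scale, with an SE equal to the difference divided by the root of F. Residual degrees of freedom were 2, with 3.20 prior ones. DESeq2 1.42.0, limma-voom (limma 3.58.1), edgeR's likelihood ratio test, other scalings, filters and count minimums, and leaving out each library were alternatives.

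Members and gene lists were chosen with earlier results of these data known. Values per library are given for members of 1 CPM or more whose groups do not overlap, for the 5 with the highest mean CPM, and for KCNQ1, KCNE1, KCNMA1, KCNN4, KCNJ8 and KCNJ11. From 2 lists of other channel and transport genes the 4 of 1 CPM or more with the smallest p are named. Others were named after their values were seen. Summed CPM is given for high replicates 1 and 2 and low replicates 1 and 2 in turn. For 8 endothelial markers it was 55.8, 60.3, 63.8 and 78.8, of which TIE1 gave 38.7, 12.1, 56.5 and 22.3. The endothelial list lay on average at -0.22, 0.26, -1.00 and 0.96 around its 4-library mean (log2 CPM with 0.5 added). For 9 leukocyte markers the sum was 2.01, 3.79, 1.00 and 3.95. For 8 oocyte markers (ZP2, ZP4 and OOEP at 0 everywhere) it was 8.82, 9.83, 6.43 and 11.8. GDF9 alone gave 8.69, 9.34, 6.40 and 11.5 of the oocyte sum. For neuronal markers the sum was 12.7, 8.04, 7.78 and 6.28.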

Additional observations from a re-analysis of the deposited data

How the results depend on the processing

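Against 0 members called lower by edgeR's quasi-likelihood test, DESeq2 and the likelihood ratio test each called 2, and with 1 library left out the count ran from 0 to 1. Calls lower by DESeq2 with 1 library left out ran from 0 to 4 against 2 with all libraries, and calls higher from 0 to 1 against 0, alternatives added after seeing the data. With 1 library left out, members without overlap ran from 12 to 15 on the higher side (8 with all libraries). On the lower side they ran from 10 to 15 (9 with all libraries). Fewer samples make overlap rarer. The shares over all genes were not computed for these cases, so the counts show nothing particular to the members. With all libraries, 8 members lay without overlap on each side under DESeq2 size factors, and 9 on each side under upper-quartile scaling. The median log2 fold change of tested members (-0.11) was -0.52 among those with a mean CPM of 1 or more and -0.43 with a minimum of 100 summed counts. With 1 library left out it ran from -0.25 to 0.17, with values above 0 when either low library was missing (0.17 for low replicate 1, 0.12 for low replicate 2). KCNH2 ran from -1.67 to 0.036, the latter without high replicate 2. KCNJ11 ran from -0.53 (high replicate 2 left out) to 1.45, with -0.42 for low replicate 1 left out. The cause was not tested. Other scalings moved the median of all genes by less than 0.1 on the log2 scale and changed the sign of no named member but KCNJ14, which stood at 0.02 and ran from -0.0048 to 0.05. Members under 1 CPM rest on few reads, which limits their precision. No paired analysis was possible because the labels give each library a code whose meaning is not stated, and no replicate numbers shared by the groups.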
